A study of Mus musculus with 33 samples.

Results

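The genes described here are the mouse zinc finger genes whose symbol is Zfp followed by digits only, such as Zfp710. RefSeq lists 367 protein-coding genes of that form on GRCm38.p6, and 53 of them were kept. A gene was kept when the numbered genomic regions of the deposited tables that lie wholly inside its span, and inside no other gene, summed to at least 100 estimated counts over 24 RNA libraries. Of the 367, 265 had no region of their own, 102 had at least 1, and 91 had at least 1 count. The members were thus selected on their summed RNA counts, and high levels among them are a description. Just inside the threshold were Zfp879 with 115 counts, Zfp948 with 107 and Zfp212 with 101. Just outside it were Zfp715 with 97, Zfp282 with 96 and Zfp318, known for controlling the splicing that yields IgD, with 92.9. A value of a gene below is RNA from regions inside its span, where exons, introns and strands could not be separated. It is not the level of the mature mRNA.

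Zfp genes encode proteins with C2H2 zinc fingers, short folds held together by a zinc ion that commonly read DNA. Many also carry a KRAB domain, which recruits the corepressor TRIM28 and with it the histone methyltransferase SETDB1 and heterochromatin proteins, and such proteins are known for silencing transposable elements. Others act as coactivators, as parts of corepressor complexes or as RNA-binding proteins, and the KRAB genes often lie in clusters that arose by duplication.

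Total RNA was sequenced from CH12, a mouse B lymphoma line that switches its antibody class when stimulated. Wild type (WT) was represented by the parental line and by 1 WT clone, and loss of ZMYND8 by the knockout (KO) clones KO1 and KO2. ZMYND8 reads modified histone tails on chromatin, and the series asks how it acts in antibody class switching. All 4 lines were grown for 48 h with or without activation, and 3 cultures of each line were taken in each state, which made 8 groups of 3 libraries. The activating agents are not named in the labels. A KO line is 1 clone, so a KO value rests on 2 clones set against 2 WT lines.

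Depth was 28.99 to 34.07 M estimated counts per library, of which the regions took 3.78 to 5.48%. Levels are scaled counts (CPM), with all estimated counts of a library as the base. Libraries of parental WT unactivated culture 3 and WT clone unactivated culture 2 stood apart from the other unactivated WT libraries on the third principal component, which held 9.29% of the variance. Of 10 B cell markers, 6 had a region, and their summed level was 20.6 to 46.4 CPM in unactivated WT, 35.1 to 50.8 in unactivated KO, 34.7 to 56.0 in activated WT and 53.4 to 71.4 in activated KO libraries. The T cell markers had 3 of 9 genes with a region, between 0.152 and 0.889 CPM in sum, with Bcl11b at 0. That sum was 0.189 to 0.401 CPM in unactivated WT and 0.453 to 0.780 in unactivated KO, 0.152 to 0.378 in activated WT and 0.434 to 0.889 in activated KO, and its part in the KO results was not tested. Myeloid markers had 3 of 7 and stromal markers 3 of 5 genes with a region, with Col1a1 at 0. The stromal sum was 0.868 to 2.01 CPM in unactivated WT, 1.18 to 1.55 in unactivated KO, 2.53 to 3.96 in activated WT and 2.56 to 3.34 in activated KO. Its part in the activation results was not tested. Regions inside Zmynd8 gave 1.24 to 1.97 CPM in unactivated WT and 1.62 to 2.62 in unactivated KO libraries, 2.01 to 3.23 in activated WT and 2.81 to 4.27 in activated KO. The labels do not say which part was deleted, so this level does not check them. Fewer cells that express a gene and less RNA per cell cannot be told apart in these bulk libraries.

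The 53 genes held 114845 counts over the 24 libraries, and Zfp978 alone held 53.4% of them. With Zfp950 and Zfp362 the share came to 66.3%. The median gene had 387.5 counts in all, and 29 of the 53 had under 500, so most values rest on few counts per library. Per kilobase of region, the order over all libraries was Zfp978 at 8.35 CPM, Zfp871 at 4.00, Zfp950 at 3.16, Zfp275 at 1.61, Zfp106 at 1.49, Zfp787 at 1.02, Zfp655 at 0.975 and Zfp442 at 0.890. The genes next to each other in this order were measured on regions of very different length, from 324 bases for Zfp106 to 9651 for Zfp978. Zfp275 was at 0 in parental WT unactivated culture 3, WT clone unactivated culture 2 and parental WT activated culture 2. In the other libraries it had 0.54 to 2.475 CPM. Zfp787 was at 0 in WT clone unactivated culture 2 and in activated culture 3 of both WT lines. Summed over all members except Zfp978, the level was 58.0 ± 6.29 CPM in unactivated WT and 58.6 ± 4.46 in unactivated KO libraries (SD, n = 6 each). In activated cells it was 79.9 ± 4.62 CPM in WT and 80.7 ± 2.20 in KO (SD, n = 6 each). For this sum the activated and unactivated ranges did not overlap in either genotype, while WT and KO ranges overlapped in both states. With Zfp978 included, the sum went from 155 ± 18.2 to 144 ± 8.17 CPM in WT and from 152 ± 10.4 to 148 ± 10.5 CPM in KO lines (SD, n = 6 each), and those ranges overlapped.

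**Figure D1:**
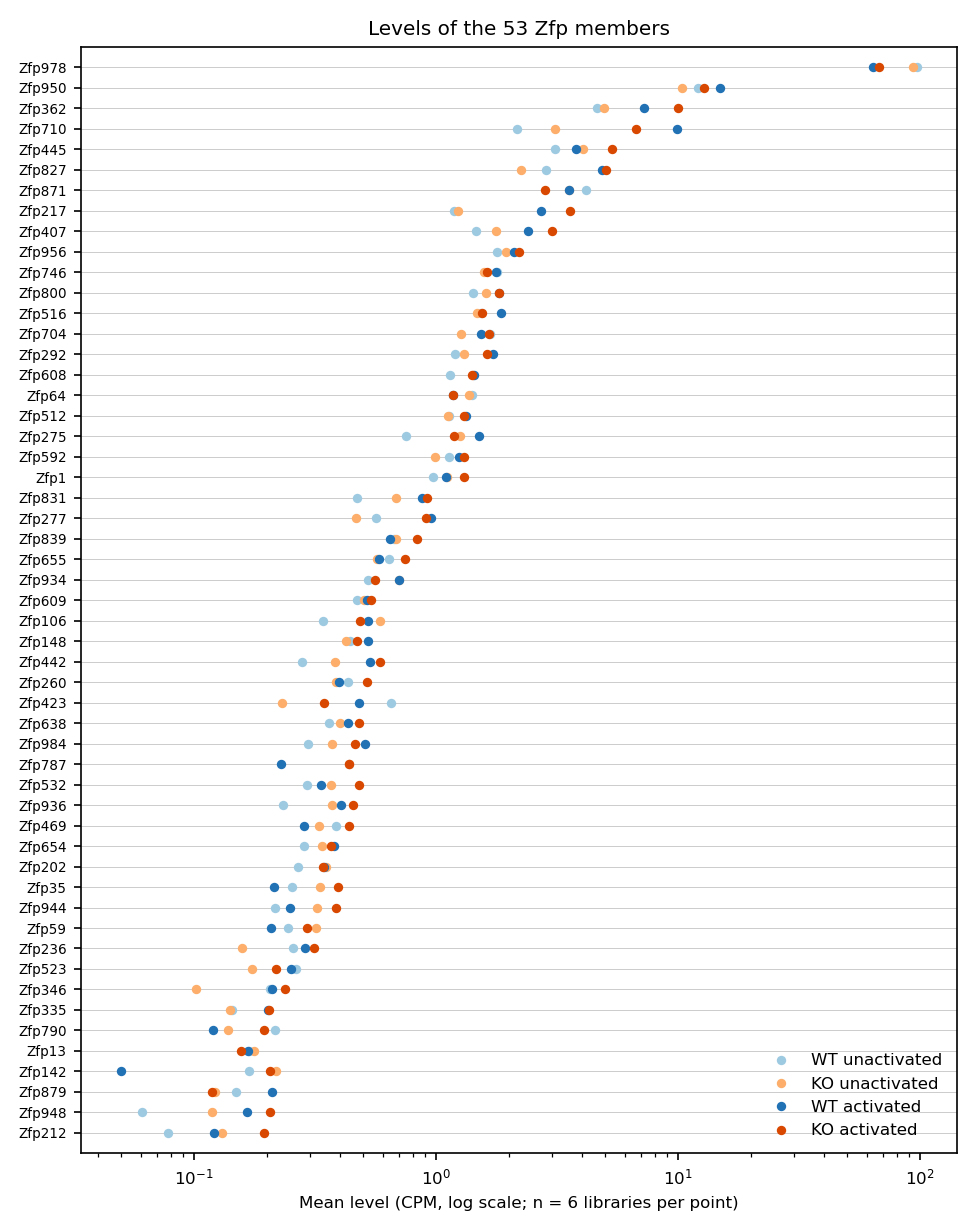
Mean level of the 53 members in CPM on a log axis, with 1 point for each of 4 conditions and 6 libraries (3 cultures of each of 2 lines) behind each point. Zfp978 lies between 63.8 and 97.2 CPM, far above the next gene, Zfp950, which lies between 10.4 and 14.8.

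The members were longer than the other candidates, with a median span of 49022 bases against 15956.5 for the other 314. The other candidates include the 265 without a region of their own. A longer gene can hold more regions, and the part of this in the difference was not tested. Chromosome 7 carried 90 of the candidates and 7 members, and chromosome 18 carried 11 candidates and 6 members. A member lay within 1 Mb of another in 13 cases. Of these, Zfp710 and Zfp592, 900.9 kb apart, changed on activation of the WT lines by 2.20 and 0.12 on the log2 scale, and Zfp978 and Zfp984, 361.9 kb apart, by −0.61 and 0.79, of which those of Zfp710 and Zfp978 passed the test. The regions were rarely at a gene's start: of 92 regions in the 39 members with a RefSeq promoter entry, 4 lay within 1 kb of a listed start site, and the median distance was 19364 bases. The 14 members without an entry, Zfp978 among them, are outside this count. Regions of other genes were not measured in this way, so it is not known to be particular to the members.

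Of the 53, 47 passed the low-count filter and were tested. Zfp335, a regulator of thymocyte maturation, Zfp13, Zfp790, Zfp879, Zfp948 and Zfp212 did not pass it. Tests were edgeR's quasi-likelihood test on all 4485 gene values that passed, adjusted over all of them by the Benjamini-Hochberg method, and "called" means an adjusted p under 0.05. Changes are log2 differences with their standard error (SE).

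The first question is which Zfp genes differed between KO and WT lines in unactivated cells. Of the 47, Zfp106 was called higher and Zfp423 lower, against 3.46% of all gene values called higher and 3.14% lower (6.6% in all). The median change was 0.11, and over all gene values it was −0.04. At an unadjusted p under 0.05 there were 6 members.

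Zfp423 fell. It encodes a protein of many fingers known to bind EBF1, the B cell specification factor, and to act with SMAD proteins. The parental WT libraries held 0.559, 0.756 and 0.900 CPM and the WT clone 0.594, 0.553 and 0.531. KO1 held 0.0936, 0.273 and 0.302 CPM and KO2 0.219, 0.343 and 0.158. All 6 KO libraries lay below all 6 WT libraries, a pattern that 1.58% of all gene values showed in this direction and 1.96% in the other. The means were 0.649 ± 0.148 CPM in WT and 0.231 ± 0.0933 in KO (SD, n = 6 each), a log2 change of −1.47 ± 0.28 (SE, edgeR adjusted p = 0.00119). The call held without any 1 of the 12 libraries, with changes from −1.64 to −1.29. In activated cells the change was −0.43 ± 0.27 and the WT and KO libraries overlapped (edgeR adjusted p = 0.449). Whether the KO difference itself changed with activation was tested by the interaction, which was 1.04 ± 0.39 and not called (edgeR adjusted p = 0.315).

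Zfp423 had 10 regions over its span, chr8:87661810-87962053 on the minus strand of GRCm38, and that at chr8:87882385-87882739 held 0 counts. The counts of the gene were few, 118 in the 6 unactivated WT libraries and 44.1 in the 6 KO libraries. Its region with most counts, at chr8:87700224-87702002, held 30.1 counts in unactivated WT and 26 in KO. The region at chr8:87707003-87709171 held 32 counts in unactivated WT, 14 from the parental line and 18 from the clone, and 1 in KO. The region at chr8:87715661-87716235 held 15 and 1. These regions were too low for a test of their own. Without the region of most counts the gene's change was −2.36 (edgeR adjusted p = 0.000377).

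Zfp106, an RNA-binding protein known for its role in motor neurons and muscle, rose by 0.85 ± 0.24 (SE, edgeR adjusted p = 0.0311). It was measured on 1 region of 324 bases. Parental WT held 0.250, 0.255 and 0.138 CPM, the WT clone 0.415, 0.496 and 0.495, KO1 0.735, 0.638 and 0.529, and KO2 0.666, 0.514 and 0.422. The parental WT libraries lay below all the others, and those of the WT clone overlapped KO2. Against the WT clone alone the change was 0.30 (edgeR adjusted p = 0.683), against parental WT alone 1.40 (edgeR adjusted p = 0.0121). The call was also lost without parental WT culture 3 (0.71), WT clone culture 1 (0.82) or 2 (0.85), KO1 culture 1 (0.79) or 2 (0.85), or KO2 culture 1 (0.75) or 2 (0.86), without both libraries that stood apart (0.71, edgeR adjusted p = 0.117), with KO2 alone (0.69), with counts summed per line (0.78), with no filter (0.85) and in DESeq2 (0.86, adjusted p = 0.0833). In activated cells the change was −0.13 ± 0.22.

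**Figure D2:**
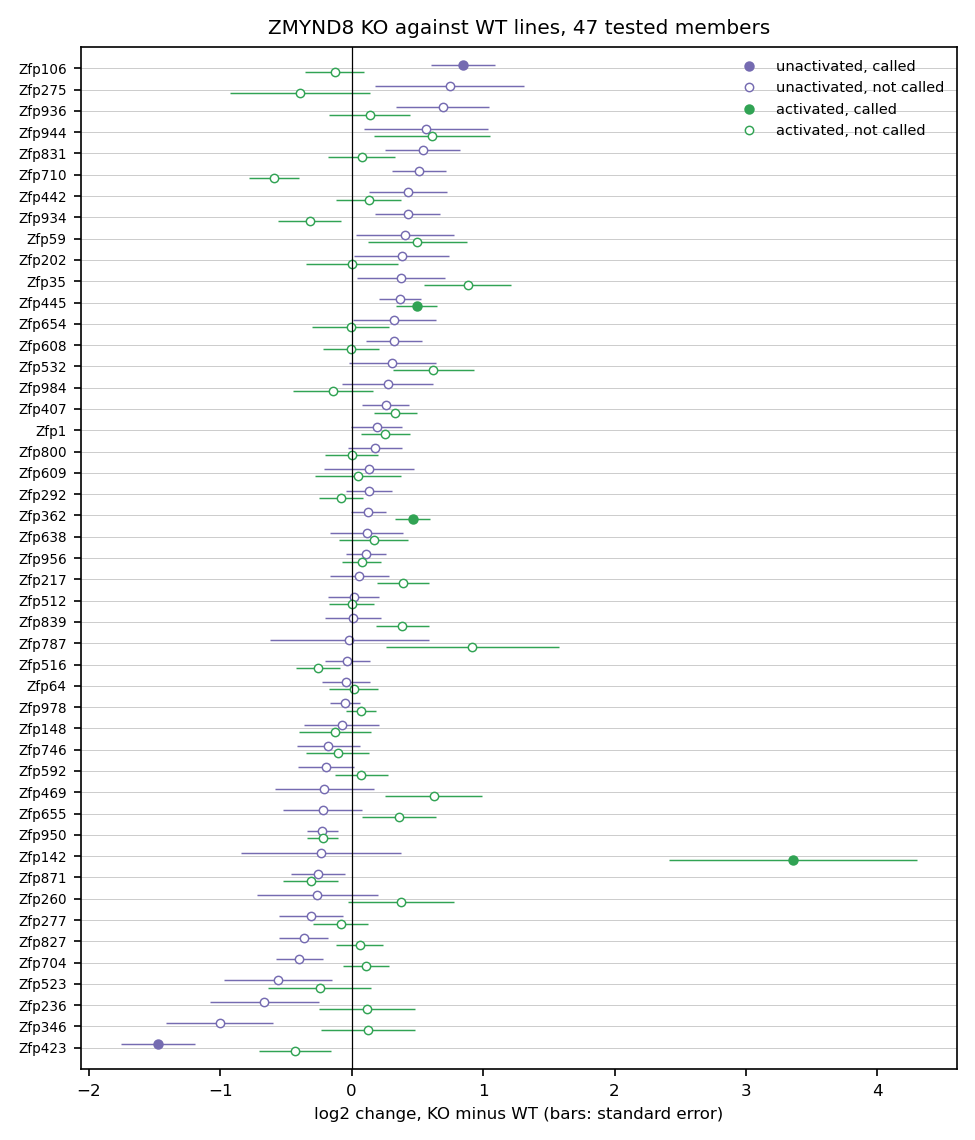
log2 change (KO minus WT) of the 47 tested members in unactivated and activated cells, with SE bars, filled where called, ordered by the unactivated change. Zfp423 lies lowest at −1.47 in unactivated cells, and Zfp142, whose activated parental WT libraries were at 0, lies far to the right at 3.36 in activated cells.

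In activated cells Zfp362, Zfp445 and Zfp142 were called higher in KO and none was called lower, against 6.35% of all gene values called higher and 2.34% lower (8.7% in all). The median change over the 47 was 0.07, the same to 2 decimals as over all gene values. At an unadjusted p under 0.05 there were 5 members. Scaling over gene values alone left Zfp142 and Zfp445 higher and called Zfp710 lower, while the share of all called gene values that were higher went from 73.1% to 60.6%.

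Zfp362, a zinc finger gene of chromosome 4, had 6.63, 7.04 and 6.73 CPM in activated parental WT and 7.66, 7.41 and 7.86 in the WT clone. In KO1 it had 8.12, 10.5 and 9.79 CPM and in KO2 11.1, 10.5 and 9.69. Each KO library was higher than every WT library, as was found for 3.7% of all gene values, with 1.16% showing the reverse. The rise was 0.46 ± 0.13 (SE, edgeR adjusted p = 0.0223). Of its 3 regions, those of 2766 and 3899 bases were also called higher in KO when regions were tested singly, by 0.44 and 0.64, and the third changed by −0.62 and was not called. The gene's call was lost without WT culture 1 (0.45), WT clone culture 1 (0.45) or 2 (0.45), KO1 culture 2 (0.42) or KO2 culture 1 (0.44). It was also lost without its region of most counts (0.26), against either WT line alone (0.55 for parental WT, 0.38 for the clone), with KO1 alone (0.39, edgeR adjusted p = 0.221), with counts summed per line (0.45, edgeR adjusted p = 0.27), with no filter (0.46, edgeR adjusted p = 0.108) and with scaling over gene values alone (0.37).

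Zfp445, a KRAB protein known for keeping imprints together with Zfp57, had 3.43, 3.93 and 4.34 CPM in activated parental WT and 3.30, 3.42 and 4.21 in the WT clone. In KO1 it had 4.54, 5.16 and 5.67 CPM and in KO2 4.98, 5.88 and 5.65. Again the KO libraries all lay above the WT libraries. The rise was 0.49 ± 0.15 (SE, edgeR adjusted p = 0.0427), and in unactivated cells, where the libraries overlapped, the change was 0.37 ± 0.16 (edgeR adjusted p = 0.183). The activated call was lost without any 1 of 9 libraries: parental WT culture 1 (0.45) or 2 (0.50), WT clone culture 1 (0.45) or 2 (0.47), KO1 culture 2 (0.49) or 3 (0.46), and KO2 culture 1 (0.53), 2 (0.47) or 3 (0.49). It was also lost against parental WT alone (0.45, edgeR adjusted p = 0.245) or the WT clone alone (0.54, edgeR adjusted p = 0.105), with KO1 alone (0.44, edgeR adjusted p = 0.257) or KO2 alone (0.55, edgeR adjusted p = 0.0732), with counts summed per line (0.49) and with no filter (0.49). The reverse held for Zfp879, which was too low for the test, with 0.185 to 0.257 CPM in activated WT and 0.0322 to 0.183 in activated KO libraries. Zfp57, its partner in imprinting, had 1 count in all libraries together.

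Zfp445 is 1 of 2 members whose region of most counts holds a listed start site, the other being Zfp59. Its region of 4234 bases, chr9:122864617-122868850 on GRCm38, holds 99.2% of its counts and a start site listed by RefSeq. This start lies inside the gene's span, chr9:122848910-122886851, and not at its 5′ end. The middle of the region lies 53% into the span. The promoter stretch at that start, 250 bases before to 50 after it on the minus strand (chr9:122865957-122866256, RefSeq, GRCm38.p6), is shown for that reason, 5′ to 3′, with a GC box (GGGCGG, read on either strand) in capitals.
Zfp445: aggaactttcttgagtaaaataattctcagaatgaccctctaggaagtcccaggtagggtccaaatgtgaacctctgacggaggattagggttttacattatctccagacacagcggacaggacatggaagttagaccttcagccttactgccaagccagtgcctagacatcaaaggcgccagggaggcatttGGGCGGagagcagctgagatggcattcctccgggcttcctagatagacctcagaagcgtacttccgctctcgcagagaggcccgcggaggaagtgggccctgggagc

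Zfp142, a zinc finger gene of chromosome 1, was measured on 1 region of 447 bases and held 9.74 counts in activated WT and 40.7 in activated KO libraries. The 3 activated parental WT libraries were at 0, and the WT clone had 0.169, 0.0610 and 0.0692 CPM. KO1 had 0.235, 0.353 and 0.267 CPM and KO2 0, 0.111 and 0.267, so the groups overlapped. The fitted change of 3.36 ± 0.94 (SE, edgeR adjusted p = 0.0243) is set by the libraries at 0 and is no measure of size. Against the WT clone alone it was 1.05 (edgeR adjusted p = 0.59). The call was lost without any 1 parental WT culture (3.36, 3.36 and 3.35 for cultures 1 to 3), WT clone culture 2 (3.25) or KO2 culture 3 (2.83), and with KO2 alone (2.82) or counts summed per line (1.98).

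Zfp710, named here after its values were seen, lay just past the threshold, with 9.91 ± 2.13 CPM in activated WT and 6.68 ± 1.58 in activated KO (SD, n = 6 each). Its KO2 libraries, at 4.57, 5.80 and 5.73 CPM, were below all WT libraries, and those of KO1, at 7.38, 8.82 and 7.80, overlapped them. The change was −0.59 ± 0.19 (SE, edgeR adjusted p = 0.0537), and in unactivated cells it was 0.51 ± 0.20 (edgeR adjusted p = 0.151). It was called in activated cells without WT culture 2 (−0.67) or WT clone culture 1 (−0.67), without the libraries that stood apart (−0.59, edgeR adjusted p = 0.0166), in DESeq2 (−0.61, adjusted p = 0.0189), with KO2 alone (−0.88, edgeR adjusted p = 0.0231), with RLE scaling (−0.61), with scaling over gene values alone (−0.68), with no filter (−0.59) and in a fit of the compared libraries only (−0.59). It was not called with KO1 alone (−0.30), with counts summed per line (−0.58), without its region of most counts (−0.23), or against parental WT (−0.46) or the WT clone (−0.72) alone.

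**Figure D3:**
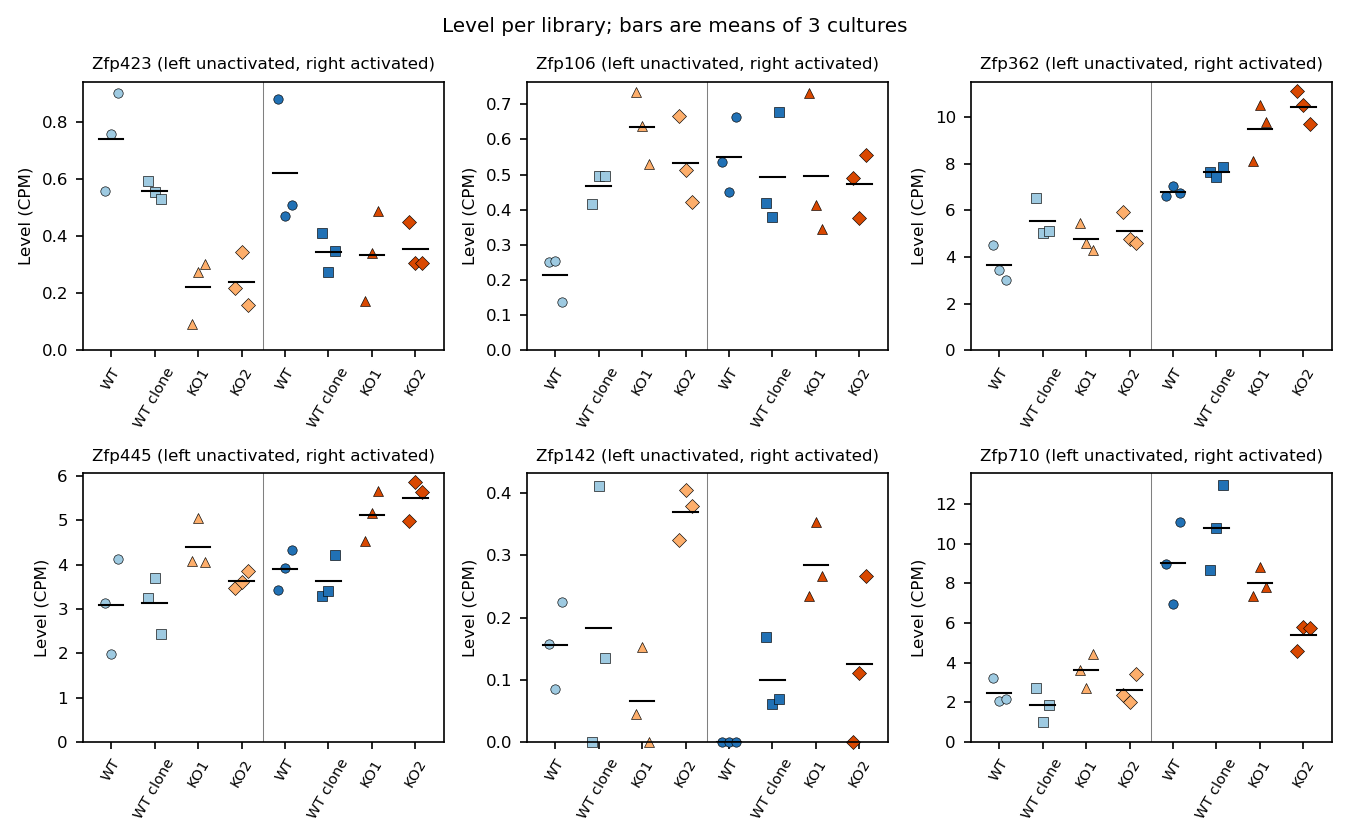
Level of 6 members in every library in CPM, on linear axes from 0, with the 4 unactivated groups left and the 4 activated groups right of each line, and short bars for means of 3 cultures. The 6 unactivated KO libraries of Zfp423 lie below the 6 WT ones, and in Zfp106 the parental WT libraries alone lie low.

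Activation moved more members. In the WT lines 10 rose (Zfp710, Zfp217, Zfp362, Zfp827, Zfp407, Zfp277, Zfp442, Zfp831, Zfp292 and Zfp106) and 2 fell (Zfp978 and Zfp142), of 47, beside 16.5% and 5.44% of all gene values (21.9% in all). In the KO lines 8 rose (Zfp362, Zfp217, Zfp827, Zfp710, Zfp407, Zfp277, Zfp346 and Zfp445) and Zfp978 fell, beside 24.1% and 4.21% (28.3% in all). The median change of the members was 0.23 in WT and 0.30 in KO lines, and that of all gene values 0.18 and 0.28. These medians depend on the scaling: with factors taken over gene values alone, all gene values had a median of −0.03 in WT and −0.04 in KO lines, and the higher share of their calls went from 75.2% to 50.9% and from 85.1% to 52.9%. Under that scaling 5 members rose (Zfp710, Zfp217, Zfp362, Zfp827 and Zfp407) and 3 fell in WT, and 6 rose and 3 fell in KO lines. The 5 that rose in both genotypes under both scalings are described first.

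Zfp710, a zinc finger gene on chromosome 7, had unactivated WT libraries at 1.01 to 3.22 CPM (median 2.09) and activated ones at 6.94 to 13.0 CPM (median 9.88). The KO libraries were at 1.99 to 4.43 CPM (median 3.08) and 4.57 to 8.82 CPM (median 6.59). Activated and unactivated libraries did not overlap in either genotype, as in 7.76% of all gene values in WT and 13.8% in KO lines in this direction. The rise was 2.20 ± 0.20 in WT (edgeR adjusted p = 7.12e-09) and 1.10 ± 0.20 in KO lines (edgeR adjusted p = 0.000112). The difference of these rises was −1.10 ± 0.28 and missed the threshold (edgeR adjusted p = 0.0615). It was called without parental WT unactivated culture 1 (−1.22, edgeR adjusted p = 0.0339) or WT clone unactivated culture 1 (−1.29, edgeR adjusted p = 0.0229), with no filter (−1.10, edgeR adjusted p = 0.00861), and in DESeq2 (−1.12, adjusted p = 0.00811).

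Zfp710 was measured on 4 regions. The regions of 543, 1244 and 4886 bases rose in both genotypes, by 2.12, 1.75 and 1.10 in WT and by 2.46, 3.17 and 0.85 in KO lines. The region of 1771 bases at chr7:80090568-80092338, the one with most counts, went from 0.592 ± 0.607 to 5.98 ± 2.17 CPM in WT and from 1.60 ± 0.798 to 3.33 ± 1.63 CPM in KO lines (SD, n = 6 each). Its rise was 3.32 in WT and was called, and 1.01 in KO lines and was not (edgeR adjusted p = 0.0945). The difference was −2.31 ± 0.67 (SE, edgeR adjusted p = 0.116). This region varied most between libraries, with 2 unactivated WT libraries at 0 and activated WT libraries from 2.08 to 8.51 CPM. Without it the gene rose by 1.32 in WT and 1.15 in KO lines, and the difference was −0.17 (edgeR adjusted p = 0.870). The region of 543 bases was called lower in activated KO than WT libraries, by 0.78, when regions were tested singly.

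Zfp217, a known oncogene product that binds CtBP and the CoREST complex, went from 1.02 to 1.35 CPM (median 1.20) to 1.66 to 3.56 CPM (median 2.79) in WT lines. In KO lines it went from 0.934 to 1.67 CPM (median 1.20) to 2.26 to 4.86 CPM (median 3.63). No activated library overlapped an unactivated one of its genotype. The rise was 1.19 ± 0.21 in WT and 1.52 ± 0.21 in KO lines (SE, edgeR adjusted p = 0.000129 and 3.26e-06), and both of its regions rose in each genotype.

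Zfp827, known for bringing the NuRD complex to telomeres, went from 1.97 to 3.83 CPM (median 2.80) to 3.44 to 5.89 CPM (median 5.02) in WT lines. In KO lines it went from 1.62 to 2.87 CPM (median 2.23) to 3.94 to 6.61 CPM (median 4.94). The WT ranges overlapped and the KO ranges did not. The rise was 0.76 ± 0.18 in WT and 1.19 ± 0.18 in KO lines (SE, edgeR adjusted p = 0.0025 and 1.62e-05). The difference between them was 0.42 ± 0.26 (edgeR adjusted p = 0.593). Of the regions of Zfp827, 2 were called in WT and 4 in KO lines.

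Zfp362 had unactivated WT libraries at 3.03 to 6.53 CPM (median 4.77) and activated ones at 6.63 to 7.86 CPM (median 7.23). Its KO libraries were at 4.28 to 5.92 CPM (median 4.69) and 8.12 to 11.1 CPM (median 10.1), with no overlap in either genotype. The rise was 0.68 ± 0.13 in WT and 1.01 ± 0.13 in KO lines (SE, edgeR adjusted p = 0.000381 and 1.43e-06). Zfp407, known for its role in glucose uptake by fat cells, rose by 0.72 ± 0.17 and 0.79 ± 0.17 (SE, edgeR adjusted p = 0.00308 and 0.000752). Its levels were 1.46 ± 0.406 and 2.40 ± 0.504 CPM in WT and 1.76 ± 0.336 and 3.01 ± 0.462 CPM in KO lines (SD, n = 6 each), and only the KO ranges were separate.

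Other calls depended on the setting. Zfp277, known for repressing the Ink4a/Arf locus, rose by 0.74 ± 0.22 in WT and 0.97 ± 0.23 in KO lines (SE, edgeR adjusted p = 0.0163 and 0.00208), from 0.566 ± 0.218 to 0.951 ± 0.216 CPM and from 0.467 ± 0.0798 to 0.907 ± 0.140 CPM (SD, n = 6 each). Its WT call was lost without WT clone unactivated culture 3 (0.61), WT activated culture 2 (0.65) or WT clone activated culture 3 (0.67), without the libraries that stood apart (0.59), in a fit of the compared libraries only (0.74) and with scaling over gene values alone (0.53). In WT lines Zfp442 rose by 0.92 ± 0.28, Zfp831 by 0.88 ± 0.28, Zfp106 by 0.69 ± 0.24 and Zfp292, named after its values were seen, by 0.52 ± 0.17 (SE). For Zfp106 parental WT went from 0.214 ± 0.0662 to 0.549 ± 0.108 CPM and the WT clone from 0.468 ± 0.0463 to 0.493 ± 0.161 CPM (SD, n = 3 each), with the libraries of the clone overlapping. Scaling over gene values alone ended the calls of all 4, with changes of 0.71 for Zfp442 and 0.67 for Zfp831. The call of Zfp442 was also lost without WT clone unactivated culture 2 (0.74) or WT clone activated culture 3 (0.82), and without both libraries that stood apart (0.63). That of Zfp831 was lost without WT unactivated culture 2 (0.73), WT clone unactivated culture 3 (0.77), WT activated culture 3 (0.64) or WT clone activated culture 1 (0.82).

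In KO lines Zfp346, which binds double-stranded RNA, rose by 1.14 ± 0.40 (SE, edgeR adjusted p = 0.0347), from 0.101 ± 0.0406 to 0.236 ± 0.120 CPM (SD, n = 6 each), with overlap. The call was lost without KO1 unactivated culture 1 (0.98), KO2 unactivated culture 2 (1.05) or 3 (1.06), KO1 activated culture 1 (0.80), or KO2 activated culture 2 (1.13) or 3 (1.10), with counts summed per line (1.21), with no filter (1.14) and in DESeq2 (1.13, adjusted p = 0.0889). Zfp445 rose by 0.41 ± 0.15 (SE, edgeR adjusted p = 0.0496). Its call was lost without any 1 of the 12 KO libraries other than KO1 unactivated culture 2, with changes of 0.36 to 0.44. It was also lost with RLE scaling (0.37), no filter (0.41), DESeq2 (0.37) and counts summed per line (0.37), and the change was 0.10 with scaling over gene values alone. Zfp142 fell in WT lines, from 29.9 counts in 6 unactivated libraries to 9.74 in 6 activated ones, with a fitted change of −3.15 ± 0.97 that again is set by libraries at 0 (SE, edgeR adjusted p = 0.0202), and its call was lost without WT clone unactivated culture 2 (−2.48), without both libraries that stood apart (−2.33) and with counts summed per line (−1.66).

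Zfp978, in a KRAB gene cluster on distal chromosome 4, fell in both genotypes. Unactivated WT libraries held 83.9 to 121 CPM (median 93.2) and activated ones 55.4 to 73.7 CPM (median 63.6). KO libraries held 82.7 to 109 CPM (median 92.8) and 57.8 to 81.5 CPM (median 67.5). The ranges were separate in each genotype, as they were in this direction for 2.25% of all gene values in WT and in KO lines. The fall was −0.61 ± 0.11 in WT and −0.48 ± 0.11 in KO lines (SE, edgeR adjusted p = 0.000248 and 0.00217). With counts summed per line the call in KO lines was lost (−0.51, edgeR adjusted p = 0.0515).

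The regions of Zfp978 changed in opposite directions. A region of 514 bases at chr4:147219244-147219757 held 94.2% of the counts and fell by 0.65 in WT and by 0.56 in KO lines. A region of 8357 bases at chr4:147339845-147348201 held 5.82% and rose by 0.38 in WT and 0.48 in KO lines (edgeR adjusted p = 0.0429 and 0.0073, over all 11166 regions tested). The longer region was also higher in KO than in WT, in both states. Unactivated, it had 3.32, 2.86 and 3.65 CPM in parental WT, 2.98, 3.29 and 2.91 in the WT clone, 4.18, 5.98 and 5.34 in KO1 and 4.07, 4.30 and 4.29 in KO2. No KO library overlapped a WT library, and the rise was 0.56 (edgeR adjusted p = 0.0085). In activated cells it went from 4.13 ± 0.532 CPM in WT to 6.52 ± 0.557 in KO (SD, n = 6 each), a rise of 0.65 (edgeR adjusted p = 0.0012). The short region did not pass the test between KO and WT, with changes of −0.08 and 0.02. Members of this cluster are similar in sequence, so reads may be shared between copies, and the assignment to Zfp978 is uncertain.

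**Figure D4:**
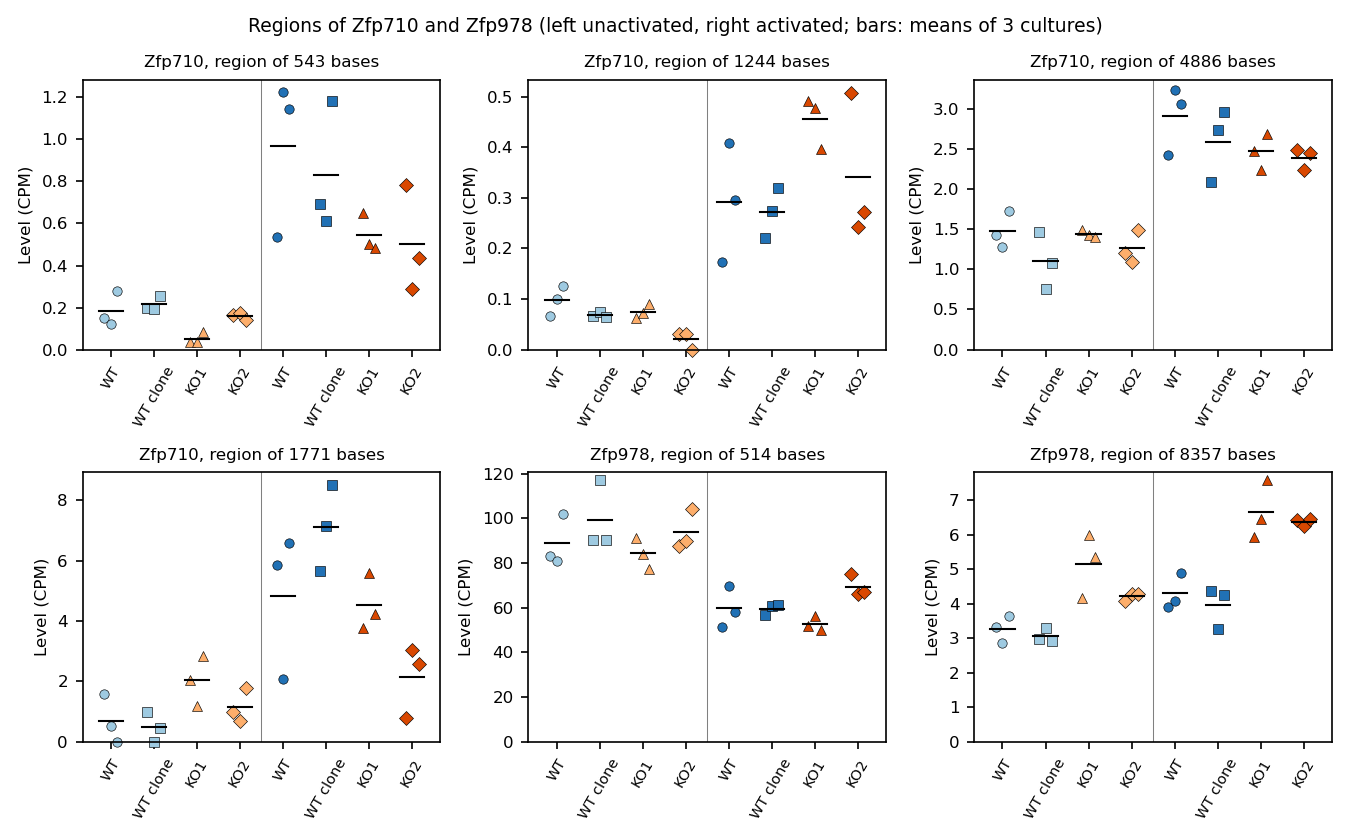
Level in every library, in CPM on linear axes from 0, of the 4 regions of Zfp710 and of the 2 regions of Zfp978 with at least 100 counts, with short bars for means of 3 cultures. The 514-base region of Zfp978 is lower in activated cells, while its 8357-base region is higher in KO than WT lines in both states, and the 1771-base region of Zfp710 spreads widely.

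Taken singly, 71 of the 163 regions inside members passed the filter. On activation 18 rose and 2 fell in WT lines, beside 17.2% and 5.73% of all regions tested, and 20 rose and 1 fell in KO lines, beside 24.6% and 4.91%. Between KO and WT, 2 were higher and 1 lower in unactivated cells, beside 4.76% and 3.47%, and 5 were higher and 1 lower in activated cells, beside 8.28% and 2.43%. The lower one in unactivated cells was a region of Zfp704, named after its values were seen, which changed by −0.72 (edgeR adjusted p = 0.0445). By edgeR none was called for a difference of activation between genotypes, with 6 at an unadjusted p under 0.05, beside 0.618% called higher and 0.188% lower.

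Promoters of some of the members that rose on activation in both genotypes are shown next, so that their letters can be set side by side. Among them is Zfp277, whose WT call depended on the setting. Each is a RefSeq stretch of GRCm38.p6, 250 bases before to 50 after the start site, 5′ to 3′ on the gene's strand, with GC boxes (GGGCGG on either strand) in capitals. They are chr7:80024564-80024863 on the plus strand for Zfp710, chr2:170142626-170142925 on the minus strand for Zfp217 and chr12:40445741-40446040 on the minus strand for Zfp277. Where several starts were listed, the one farthest upstream was taken.
Zfp710: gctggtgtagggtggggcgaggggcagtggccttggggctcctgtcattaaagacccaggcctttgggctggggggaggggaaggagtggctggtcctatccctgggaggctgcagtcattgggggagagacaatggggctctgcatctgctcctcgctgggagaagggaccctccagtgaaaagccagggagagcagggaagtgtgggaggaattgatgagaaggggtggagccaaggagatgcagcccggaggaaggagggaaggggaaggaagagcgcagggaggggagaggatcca
Zfp217: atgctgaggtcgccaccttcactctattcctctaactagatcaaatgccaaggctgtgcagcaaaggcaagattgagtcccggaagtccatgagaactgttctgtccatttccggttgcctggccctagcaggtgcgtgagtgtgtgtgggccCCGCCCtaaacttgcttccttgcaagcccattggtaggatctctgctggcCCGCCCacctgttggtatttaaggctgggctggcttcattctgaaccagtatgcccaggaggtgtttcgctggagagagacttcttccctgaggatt
Zfp277: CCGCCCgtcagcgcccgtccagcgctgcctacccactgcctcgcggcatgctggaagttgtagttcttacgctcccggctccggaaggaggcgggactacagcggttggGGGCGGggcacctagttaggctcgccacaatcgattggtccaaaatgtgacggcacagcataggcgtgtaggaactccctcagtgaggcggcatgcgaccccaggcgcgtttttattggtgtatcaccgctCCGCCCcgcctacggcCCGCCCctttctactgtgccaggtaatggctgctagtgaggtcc

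The stretch of Zfp710 had no GC box and 4 CpG, that of Zfp217 had 2 GC boxes and 7 CpG, and that of Zfp277 had 4 and 26. That of Zfp827, which also rose in both genotypes and is not shown, had no GC box and 23 CpG. A GC box was found in 21 of the 39 member promoters (53.8%) and in 35.9% of all 27025 listed promoters. On either strand, the ETS letters CCGGAAG were in 9 of 39 (23.1%) against 9.1%, the E-box CACGTG in 6 (15.4%) against 7.2%, and the AP-1 letters TGANTCA in 2 (5.1%) against 7.9%. None of these motifs contains another, but the GC box, ETS and E-box letters each hold a CG and the AP-1 letters do not. Their shares are therefore not separate from the number of CpG. The listed promoters were not selected on RNA counts, as the members were. The median number of CpG was 16 in members and 7 in all. These are matches of letters, and no test was made of them.

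The activation response was then compared between genotypes for all members. By edgeR none of the 47 was called, beside 0.424% of all gene values called higher and 0.134% lower (0.557% in all). At an unadjusted p under 0.05 there were 6, and DESeq2 called Zfp710. The others of these 6 were Zfp142, Zfp106 (−0.98 ± 0.33), Zfp423 (1.04 ± 0.39), Zfp934 (−0.74 ± 0.34) and Zfp346 (1.13 ± 0.54), all with an edgeR adjusted p of 0.227 or more. Between the 2 WT lines none of the 47 was called by edgeR, beside 0.223% of all gene values (0.0446% higher in the clone and 0.178% lower), with 5 at an unadjusted p under 0.05. Between KO1 and KO2 none was called, beside 0.424% (0.223% higher in KO2 and 0.201% lower), with 3 at an unadjusted p under 0.05. DESeq2 called 0 members for either pair of lines.

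By role, the members known to form a complex with ZMYND8 did not pass any test. Zfp592 had 1.13 ± 0.408 CPM in unactivated WT and 0.988 ± 0.194 in KO, and 1.25 ± 0.359 and 1.30 ± 0.198 in activated cells. Zfp532 had 0.291 ± 0.0975 and 0.367 ± 0.109 CPM, and 0.333 ± 0.175 and 0.482 ± 0.192 in activated cells (SD, n = 6 each). The KO change in activated cells was 0.07 ± 0.20 for Zfp592 and 0.62 ± 0.31 for Zfp532. Zfp687, the third of these partners, is not among the members. Of the lymphocyte regulators, 3 were tested: Zfp423 above, Zfp608, which represses the Rag genes in thymocytes, with a KO change of 0.32 ± 0.21 unactivated and 0.00 ± 0.21 activated, and Zfp35 with 0.38 ± 0.34 and 0.88 ± 0.33, none of the latter called. Of the RNA-binding members Zfp638, known for silencing unintegrated retroviral DNA, passed no test, with KO changes of 0.12 and 0.17.

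The machinery that KRAB proteins recruit was measured in part, with 17 of 44 listed genes tested. None was called by edgeR between KO and WT lines in either state, beside 6.6% of all gene values in unactivated and 8.7% in activated cells. At an unadjusted p under 0.05 there were 1 in unactivated and 2 in activated cells. Pphln1, named after its values were seen, lay just past the threshold in unactivated cells. It had 0.725 ± 0.441 CPM in WT and 0.352 ± 0.0795 in KO (SD, n = 6 each). The change was −1.02 ± 0.315 (SE, edgeR adjusted p = 0.0504), and in activated cells it was −0.07. On activation 2 of the 17 rose and none fell in each genotype, beside 16.5% of all gene values called higher in WT and 24.1% in KO lines: the DNA methyltransferase Dnmt3a, from 3.89 to 6.18 CPM in WT and 3.96 to 6.40 in KO lines, in both, the NuRD subunit Mta3 in WT (0.43) and the histone methyltransferase Ehmt1 in KO lines (0.79). Setdb1 passed no test. The list's median change was 0.17 in WT and 0.31 in KO lines, and that of all gene values 0.18 and 0.28. Of 12 genes for ZMYND8 and its associates 7 were tested. Between KO and WT lines only Zmynd8 itself was called, higher in activated KO lines by 0.52 ± 0.16 (SE, edgeR adjusted p = 0.0417). Over all gene values 6.35% were called higher there. On activation Zmynd8 rose by 0.67 in WT and 0.87 in KO lines (edgeR adjusted p = 0.00415 and 0.00018). Zmynd11 fell by 1.24 in KO lines (edgeR adjusted p = 0.00851), where 4.21% of all gene values were called lower.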

How the data were processed

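Libraries were stranded and read from a single end after ribosomal RNA removal, per the labels' protocols. Kallisto 0.43.0, DESeq2 and GRCm38.p5 are named in the submitters' processing notes. How the index was built and which strand kallisto counted were not stated in those sources. The authors deposited estimated counts (expected counts, not normalized) and TPM values for 171152 targets per library, of which 49745 are genomic regions. The deposited TPM values were not used. Estimated counts of regions wholly inside 1 RefSeq gene of GRCm38.p6 were summed per gene and rounded, with 12 locus-spanning entries left out, which gave 10750 gene values. Library size was the total estimated count, with TMM factors over all targets (0.923 to 1.11). Features passing filterByExpr entered 1 edgeR 4.0.16 quasi-likelihood model (limma 3.58.1, R 4.3.3) of 8 group means, and single regions the same model. Alternatives included DESeq2 1.42.0. In simulated data for KO against WT unactivated, changes were put only into gene values above the median level of the 4485. Of these, 82% of 2-fold and 100% of 4-fold changes were found, and 8.08% of the calls were false. Changes in lower gene values were not tried, and no difference between lines of the same genotype was simulated. Pairs of replicates differed by more than sampling noise (chi-square per degree of freedom 2.26 to 17.4). The labels call cultures biological repeats and say no more, so p-values measure the spread between these libraries.

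Members and lists were chosen with earlier results of these data known. The text names up to 8 called members per direction by p, the 8 highest per kilobase, those at the count threshold and role lists. The 9 ChIP-seq and GRO-seq samples were not analysed here.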

Additional observations from a re-analysis of the deposited data

How the results depend on the processing

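Alternatives were RLE scaling, scaling over gene values alone, dropping the filter, the replicate block, DESeq2, line sums, a fit of the compared libraries only, each KO or WT line alone, each library left out, and, chosen after seeing the data, leaving out the 2 libraries that stood apart and each member's region of most counts. Members called between KO and WT in unactivated cells went from 2 to 1 with no filter, DESeq2, counts summed per line, KO2 alone and the WT clone alone. In activated cells they went from 3 to 0 with counts summed per line and against the WT clone alone, and to 1 without the regions of most counts, against parental WT alone and with KO1 alone. On activation of WT lines 12 became 7 without those regions. The difference of activation between genotypes went from 0 members to 2 with no filter, 1 with the replicate block and 1 with DESeq2. Leaving out each library in turn gave 1 to 2 members for KO unactivated, 0 to 3 for KO activated, 8 to 13 for activation in WT, 7 to 11 in KO lines, 0 to 1 for the difference of activation and 0 to 0 for both pairs of lines. Without its region of most counts Zfp978 turned from falling to rising, by 0.39 in WT and 0.48 in KO lines, and that alternative by its construction leaves the 8357-base region. For the other changes the cause was not tested. With the replicate block, Zfp710 was called lower in activated KO (−0.57, edgeR adjusted p = 0.0394) and for the difference of activation (−1.07, edgeR adjusted p = 0.0421). Deviations of same-numbered libraries of other groups correlated between −0.294 and 0.264 (median 0.0654). Those of libraries with other numbers correlated between −0.332 and 0.449 (median −0.0345). These ranges overlap and cannot decide the question, and the labels name no pairing, so none was used in the main fit. Still, 18 of 24 libraries correlated best with their own number, a hint from the data that libraries of a number share something. In activated cells 17.03% of all gene values had 1 number as the highest or the lowest of every line, and in unactivated cells 7.96%. The main fit may thus leave out a pairing, and its p-values take no account of one. What share would arise without a pairing was not worked out. A fit without exons of annotated genes was planned and not run. Low counts limit most members: 36 of 163 regions had under 20 counts in all libraries together.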

Other observations

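Other zinc finger families were listed by symbol. In activated cells 2 of 11 tested Zbtb genes, 1 of 2 Ikzf genes and 1 of 6 Zc3h genes were called higher in KO lines by edgeR, beside 6.35% of all gene values. In the other families listed, none was called in that comparison. These were 7 tested Klf and Sp genes, 10 Phf genes, 6 Zdhhc genes and 2 Zscan and Zkscan genes. The Ikzf gene was Ikzf1, a regulator of lymphocyte development, which went from 35.8 to 49.4 CPM (0.47, edgeR adjusted p = 0.0376). The Zc3h gene was Zc3h12d (0.85, edgeR adjusted p = 0.00383). Of 20 Zbtb genes with a region 11 were tested, and Zbtb38 and Zbtb20 were called higher in activated KO lines (edgeR), from 2.88 to 5.42 CPM and from 5.32 to 9.78 CPM, each by 0.92. Between the WT clone and parental WT, over both states, Zbtb20 changed by −0.84 (edgeR adjusted p = 0.0278) and Zbtb38 by −0.50 (edgeR adjusted p = 0.403). None of the 11 was called between KO and WT in unactivated cells, beside 6.6% of all gene values, and 4 had an unadjusted p under 0.05. On activation 3 of the 11 Zbtb genes rose in WT and 4 in KO lines, beside 16.5% and 24.1% of all gene values. None fell, beside 5.44% and 4.21%.

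In activated cells, libraries of the same replicate number often took the same place in their line. Zfp827, Zfp407, Zfp704 and Zfp442 were highest in the library numbered 3 in all 4 lines, and Zfp217 and Zfp609 were lowest there. In all, 10 of the 47 tested members (21.28%) had 1 number as the highest or the lowest of every line, beside 17.03% of all 4485 gene values. In unactivated cells there were 3 of 47 (6.38%), beside 7.96% of all gene values. The genes were named after their values were seen, and what the numbers stand for is not given in the labels.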
